A study of Mus musculus with 2 samples.

Results

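Spry1, Spry2, Spry4, Spred1, Dusp6, Etv4 and Etv5 are genes that cells switch on when fibroblast growth factor (FGF) signalling is active. They were taken as listed by symbol, and all 7 were present among the 17775 genes counted at embryonic day 13.5 (E13.5) and the 16236 counted at embryonic day 11.5 (E11.5), of which 15944 were shared. Both groups were mandibular prominences, the embryonic tissue of the lower jaw, from wild-type mice of the CD1 strain, with no transgene, deletion or treatment named. The E13.5 tissue included the growing tongue and skeletal elements, and the E11.5 tissue included the tongue bud. Each stage was profiled as 1 droplet-based 10x single-cell RNA library, so cells are not replicates and no p-value is given.

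On mouse genome build GRCm38, Spry1 lies at chr3:37639947-37644598 on the plus strand and Spry2 at chr14:105891947-105896819 on the minus strand. Spry4 lies on the minus strand of chromosome 18, and Spred1 spans chr2:117121374-117182279 on the plus strand. Dusp6 lies at chr10:99263231-99267489 on the plus strand, Etv4 at chr11:101769742-101785371 and Etv5 at chr16:22381309-22439719, both on the minus strand. In the GENCODE annotation no gene named in the count tables overlapped any of the 7.

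FGF ligands bind receptor tyrosine kinases at the cell surface and pass a signal through RAS to the kinases ERK1 and ERK2. The ETS transcription factors encoded by Etv4 and Etv5 are induced by this signal and carry it to target genes. Sprouty and SPRED proteins restrain the pathway at the level of RAS, and the phosphatase encoded by Dusp6 removes the activating phosphates from ERK in the cytoplasm. In the early jaw, FGF from the oral epithelium keeps the adjoining neural crest mesenchyme alive, growing and patterned, and these genes are commonly used to read where the signal is received.

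The 250 bases before the start of Dusp6, Spry2 and Spry1, from RefSeq on GRCm38.p6, are shown because ETS factors such as those of Etv4 and Etv5 bind the core GGAA. Capitals mark GGAA or, where it lies on the other strand, TTCC. The Dusp6 window is chr10:99262981-99263230 (plus strand), the Spry2 window chr14:105896820-105897069 (minus strand) and the Spry1 window chr3:37639697-37639946 (plus strand).
Dusp6: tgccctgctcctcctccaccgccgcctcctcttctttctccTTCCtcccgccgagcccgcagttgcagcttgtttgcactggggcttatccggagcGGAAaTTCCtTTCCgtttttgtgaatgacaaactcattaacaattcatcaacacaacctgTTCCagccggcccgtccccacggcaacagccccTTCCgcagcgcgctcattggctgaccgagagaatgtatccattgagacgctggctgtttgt
Spry2: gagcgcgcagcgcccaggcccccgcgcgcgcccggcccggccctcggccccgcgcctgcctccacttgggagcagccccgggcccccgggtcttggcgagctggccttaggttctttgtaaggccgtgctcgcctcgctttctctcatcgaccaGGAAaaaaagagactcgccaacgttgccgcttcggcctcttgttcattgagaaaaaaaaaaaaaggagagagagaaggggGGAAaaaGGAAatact
Spry1: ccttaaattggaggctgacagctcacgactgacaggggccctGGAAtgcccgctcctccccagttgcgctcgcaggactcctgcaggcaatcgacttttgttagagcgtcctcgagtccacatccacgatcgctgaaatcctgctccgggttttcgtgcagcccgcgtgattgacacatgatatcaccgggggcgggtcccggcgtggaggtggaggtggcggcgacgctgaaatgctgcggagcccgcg
The core occurred 6 times before Dusp6, 3 times before Spry2 and 1 time before Spry1. In windows not shown the core occurred 4 times before Spred1 and, by window, 0 or 4 times before Etv5. It is a short motif, and 93.4% of the 32851 promoter windows of this length held it at least 1 time, with a median of 3. At least 6 matches stood in 8.69% of windows. A match describes the letters only.

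In the E13.5 library 67838169 UMIs (unique molecular identifiers, each 1 captured transcript) came from 6318 cells. The E11.5 library had 49913485 UMIs in 7099 cells, and the median cell had 9280 UMIs at E13.5 and 6231 at E11.5. Levels are given as counts per 1000000 (CPM) of the UMIs summed over the cells of a class or a deposited cluster. Brackets hold 95% intervals that cover counting error only. The stage cannot be told apart from the library, from the dissociation protease (5 mg/ml at E13.5 and 3 mg/ml at E11.5), or from the sex of the pooled embryos, since mesenchymal Xist stood at 499 CPM at E13.5 and at 0.0536 CPM at E11.5. The deposited E13.5 cells reached down to 500 UMIs and up to 19.98% mitochondrial counts, and the E11.5 cells to 2253 UMIs and 7.9%. The libraries shared 71 barcodes, 1.12% of the E13.5 and 1% of the E11.5 cells. Classes group the authors' lineage names, with some renamed. Osteogenic progenitors were placed in mesenchyme, and the authors' ectoderm is called epithelium here. The E13.5 cluster that the authors named mast cells is called macrophage-led by its leading genes. Their neurogenic E13.5 cluster is called glia. All 8 mesenchyme markers had UMIs in the mesenchyme of both stages, and their summed level there was 2420 CPM at E13.5 and 2100 CPM at E11.5. E13.5 mesenchyme cluster 2 had the neuron marker Stmn2 and no mesenchyme marker among its 10 leading genes. Its Stmn2 level was 633 CPM, against 55.3 CPM in the rest of the mesenchyme, while its Prrx1 level was 197 CPM and its Twist1 level 102 CPM. The E11.5 endothelium had Pf4 and Ppbp among its 10 leading genes. Macrophage markers summed to 813 CPM there, against 12.1 CPM in the E13.5 endothelium, so the endothelial stage ratios may compare unlike mixtures of cells.

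Every one of the 7 genes was sparse. After each cell was thinned to 2000 UMIs, 19.9% of 3826 E13.5 mesenchyme cells and 21.1% of 5899 E11.5 mesenchyme cells held a UMI of any of them. Erythroid cells, which should lack these genes, were used to gauge the background from free RNA. Their levels ran to 1.67 CPM at E13.5 and to 4.91 CPM at E11.5, in both cases for Dusp6. Their thinned shares ran to 0.485% at E13.5 and 1.1% at E11.5, with median depths of 18517 and 13137 UMIs, against 8303 and 5895 UMIs in the mesenchyme. Haemoglobin made up 88.2% of erythroid UMIs at E13.5 and 65.7% at E11.5, which dilutes other RNA in both measures. These values can therefore understate the background in other classes, and unequally between the stages.

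**Figure D1:**
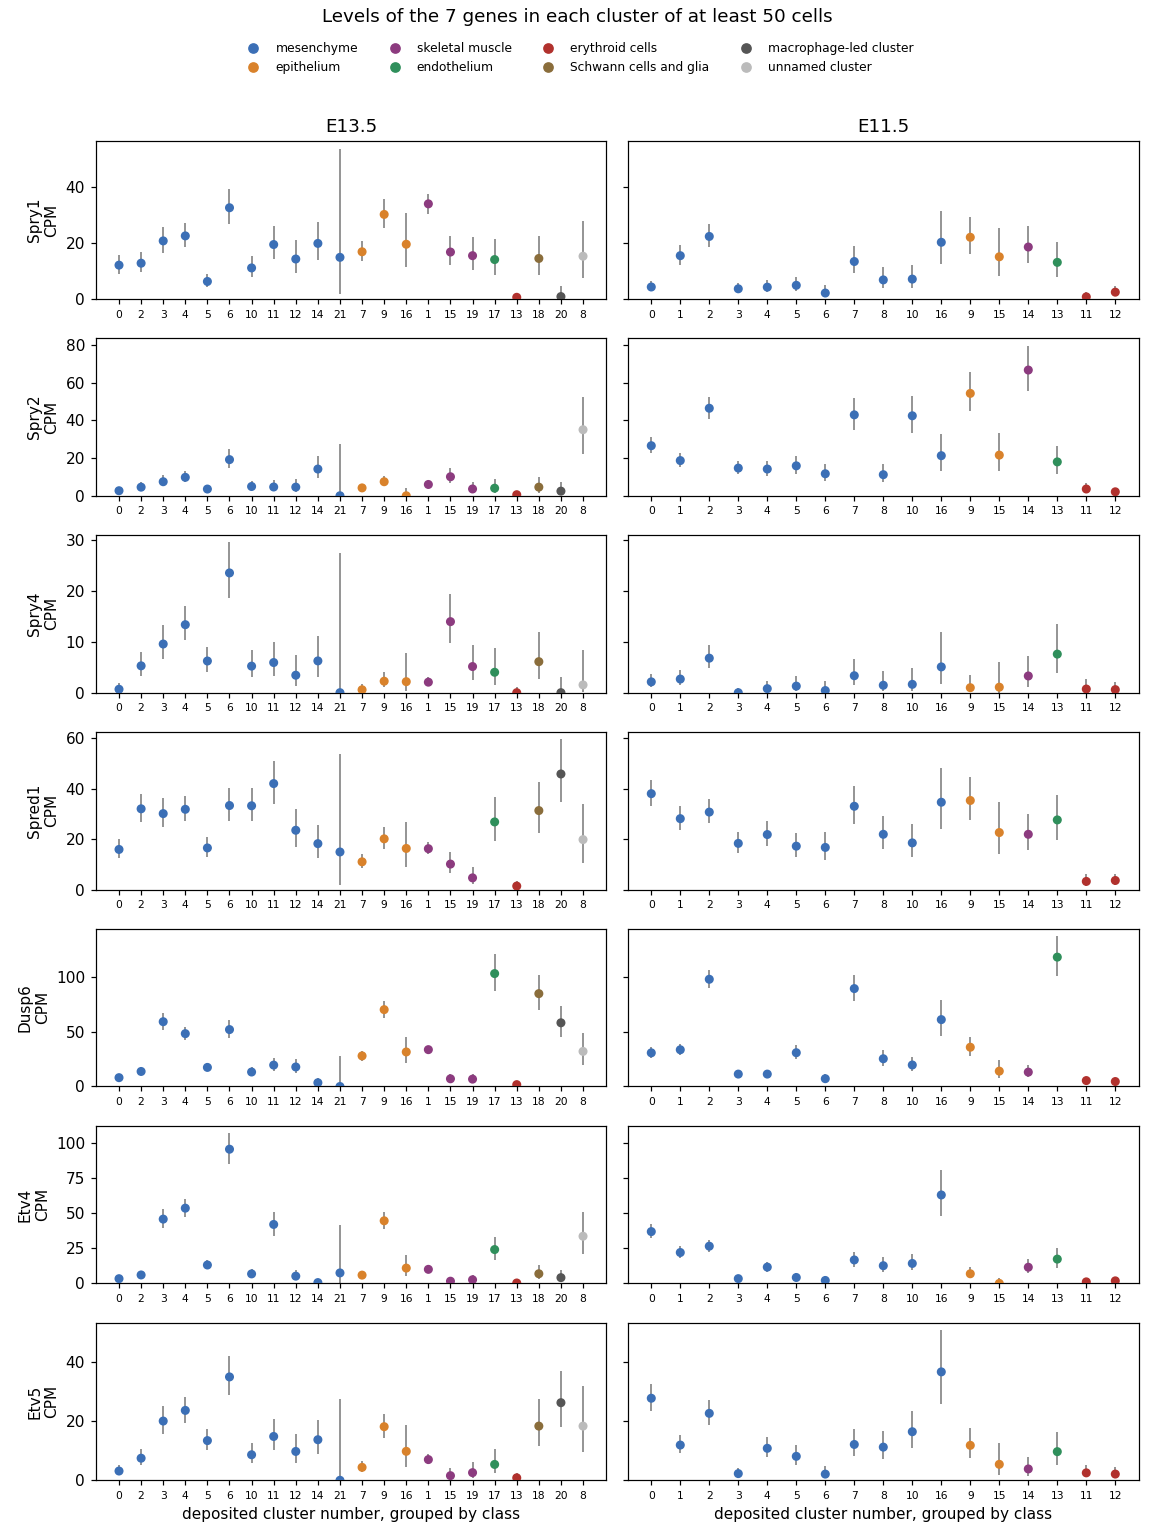
Level (CPM, linear axis) of each gene in each deposited cluster of at least 50 cells, E13.5 left and E11.5 right, coloured by cell class; points are summed levels and lines 95% counting intervals. The highest E13.5 level of Spry2 is 35.1 CPM in the unnamed cluster 8, and Dusp6 is highest in endothelium at both stages, with 103 CPM at E13.5 and 118 CPM at E11.5.

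The Sprouty genes encode membrane-bound inhibitors of receptor tyrosine kinase signalling, and the 3 did not share a pattern between the stages. Spry1 was higher in the E13.5 mesenchyme, with 574 UMIs and 16.7 CPM (15.4 to 18.2), against 358 UMIs and 9.6 CPM in the E11.5 mesenchyme. The ratio was 1.74 (1.53 to 2), or 0.8 on the log2 scale, and 1.88 on that scale in G1 cells and 1.35 after erythroid UMIs per cell were subtracted. In skeletal muscle Spry1 stood at 28.6 CPM at E13.5 and 18.6 CPM at E11.5, a ratio of 1.53 (1.08 to 2.25), which turned to a log2 value of -0.86 in G1 cells. In epithelium it stood at 22.7 CPM at E13.5 and 19.9 CPM at E11.5, and the interval of the ratio (0.856 to 1.55) included 1. In endothelium it stood at 14.1 CPM at E13.5 and 13.1 CPM at E11.5. The order of the classes also differed. At E13.5 skeletal muscle had the highest level, above epithelium and then mesenchyme, and the intervals of these 3 did not overlap. At E11.5 epithelium, skeletal muscle and endothelium overlapped at 19.9, 18.6 and 13.1 CPM, with mesenchyme at 9.6 CPM.

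Spry2 was lower at E13.5 in all 4 classes that both libraries held in number. In epithelium it stood at 5.18 CPM at E13.5 (55 UMIs in 838 cells), against 44.1 CPM at E11.5 (131 UMIs in 405 cells), which is 8.52-fold lower (6.17 to 11.9). In skeletal muscle the levels were 6.41 CPM at E13.5 and 66.8 CPM at E11.5, 10.4-fold lower (7.9 to 13.8). In endothelium, with 6 and 26 UMIs, they were 4.02 CPM at E13.5 and 18 CPM at E11.5, 4.47-fold lower (1.8 to 13.3). In mesenchyme 7.14 CPM at E13.5 stood against 24.7 CPM at E11.5. The log2 ratio in mesenchyme kept between -1.99 and -1.48 over 13 alternative treatments of the cells and scaling. Rbm15 and Marf1, described under the other observations, were also lower at E13.5 in all 4 classes. Positive cells also held more Spry2 UMIs at E11.5. A positive cell held 1.16 UMIs on average at E13.5 and 1.44 at E11.5 in mesenchyme, and 1.17 and 1.82 in epithelium. At E13.5 the highest mesenchyme cell had 3 Spry2 UMIs, and at E11.5 it had 11. Among these classes skeletal muscle led at E11.5, above epithelium and then mesenchyme with no overlap of their intervals. At E13.5 the intervals of mesenchyme, muscle and epithelium overlapped, with levels between 5.18 and 7.14 CPM.

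Spry4 was the rarest of these 3 Sprouty genes in the E11.5 library. It had 279 UMIs and 8.13 CPM (7.21 to 9.15) in the E13.5 mesenchyme, against 90 UMIs and 2.41 CPM in the E11.5 mesenchyme, a log2 ratio of 1.75 that came to 3 after erythroid UMIs per cell were subtracted. In the thinned cells this was 1.59% of E13.5 mesenchyme cells and 0.475% of E11.5 cells. The E11.5 share lay within the interval of the erythroid share of 0.219% (0.00555 to 1.22%), so at that depth Spry4 detection in single E11.5 mesenchyme cells could not be told from free RNA. Epithelium held only 15 Spry4 UMIs at E13.5 and 3 at E11.5, too few for the size rule. In skeletal muscle the levels were 4.57 CPM at E13.5 and 3.29 CPM at E11.5, with overlapping intervals.

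Spred1 encodes a Sprouty-related inhibitor that brings neurofibromin to the membrane, where it turns RAS off. Mesenchyme stood at 27.3 CPM at E13.5 and 26.2 CPM at E11.5, a ratio of 1.04 (0.954 to 1.14). Epithelium was lower at E13.5, with 15.3 CPM against 31.3 CPM at E11.5, or 2.05-fold lower (1.57 to 2.66), a log2 ratio of -1.04. In thinned cells the value was -0.85, which did not meet the whole size rule. Skeletal muscle was also lower, with 13.6 CPM at E13.5 against 21.9 CPM at E11.5, or 1.61-fold lower (1.11 to 2.26). Its log2 ratio of -0.68 ranged between -1.21 and -0.54 over 9 alternatives, and the value of -0.54 is short of 1.5-fold. Endothelium stood at 26.8 CPM at E13.5 and 27.6 CPM at E11.5. Among the clusters at E13.5 the macrophage-led cluster 20 had the highest level, 45.8 CPM, and its interval overlapped that of mesenchyme cluster 11 at 42 CPM.

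Dusp6, in contrast to Spry2, stood higher at E13.5 in some classes and lower in another. In epithelium it was higher at E13.5, with 45.8 CPM (486 UMIs) against 29 CPM (86 UMIs) at E11.5, a ratio of 1.58 (1.25 to 2.01). The share of thinned epithelial cells with a UMI was 6.69% at E13.5 and 6.67% at E11.5, and the log2 ratio from thinned cells was 0.08, against 0.66 from all UMIs, so this call does not hold at a fixed depth per cell. Before thinning, each positive epithelial cell held 2.44 Dusp6 UMIs at E13.5 and 1.34 at E11.5. These means are not at equal depth, as the median epithelial cell had 12286.5 UMIs at E13.5 and 6507 at E11.5. In skeletal muscle it was higher too, with 25.4 CPM at E13.5 against 13.1 CPM at E11.5, a ratio of 1.93 (1.28 to 3.05), but its log2 ratio of 0.95 was 0.37 in thinned cells and -0.9 in G1 cells. In mesenchyme it was 1.44-fold lower (1.32 to 1.56), with 27 CPM at E13.5 against 38.8 CPM at E11.5. This is short of the 1.5-fold size rule, but Dusp6 passed it with size factors, in thinned cells and in cells with no Xist UMI. Over 13 alternatives its mesenchymal log2 ratio of -0.52 ranged between -0.69 and -0.26, so it also came nearer to no change. Endothelium had the highest class level at both stages, 103 CPM (87.5 to 121) at E13.5 and 118 CPM (101 to 137) at E11.5, and the intervals of the stages overlapped. After thinning, 22.9% of 105 E13.5 and 16% of 162 E11.5 endothelial cells held a Dusp6 UMI, against 4.39% and 6.71% of mesenchyme cells. Glia followed, with 84.7 CPM (69.7 to 102) in 102 E13.5 cells and 89.4 CPM (56.7 to 134) in 26 E11.5 cells, which overlapped endothelium. The macrophage-led cluster, seen at E13.5, had 58.1 CPM.

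Etv4 and Etv5 encode related ETS factors of the PEA3 group, and their stage ratios were unlike. Etv4 was higher in the E13.5 epithelium, with 22.4 CPM (238 UMIs) against 4.72 CPM (14 UMIs) at E11.5, a ratio of 4.76 (2.78 to 8.83). Its log2 value of 2.25 was 1.57 in thinned cells, 3.45 after erythroid UMIs per cell were subtracted and 0.97 in G1 cells, where the rule was not met. It was also higher in mesenchyme, with 28.4 CPM at E13.5 against 18.7 CPM at E11.5, a ratio of 1.52 (1.38 to 1.68) at the edge of the size rule. The mesenchymal Etv4 call was lost with size factors (log2 ratio 0.48), in thinned cells (0.58), in G1 cells (0.39) and in cells with no Xist UMI (0.5). In skeletal muscle Etv4 stood at 7.57 CPM at E13.5 and 11.5 CPM at E11.5, and in endothelium at 24.1 CPM and 17.3 CPM, with intervals of the ratio that included 1. Etv5 stood at 15 CPM at E13.5 and 14.5 CPM at E11.5 in mesenchyme, a ratio of 1.03 (0.914 to 1.17). In epithelium it stood at 10.6 CPM and 9.77 CPM, a ratio of 1.08 (0.713 to 1.69). No class passed the size rule for Etv5.

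Between the stages, then, the size rule (at least 1.5-fold, an interval that excludes 1 and at least 20 UMIs in all) placed 3 genes higher and 1 lower at E13.5 in mesenchyme. The same rule placed 27.0% of 14139 genes higher and 12.2% lower there, and the median log2 ratio of all genes was 0.14. In epithelium 2 of 6 measured were higher and 2 lower, beside 9.33% and 14.2% of 11677 genes. In skeletal muscle 2 of 7 were higher and 2 lower, beside 9.38% and 13.7% of 11428 genes. In endothelium none of 6 was higher and Spry2 was lower, beside 7.43% and 13.6% of 8586 genes. Spry4 was left out in epithelium and endothelium with 18 and 17 UMIs. Immediate early genes, which tissue dissociation can also induce, differed alongside. In mesenchyme 13 were measured, and 8 of them stood higher at E13.5 while 0 stood lower (median log2 ratio 0.88). Their part in these values was not tested.

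**Figure D2:**
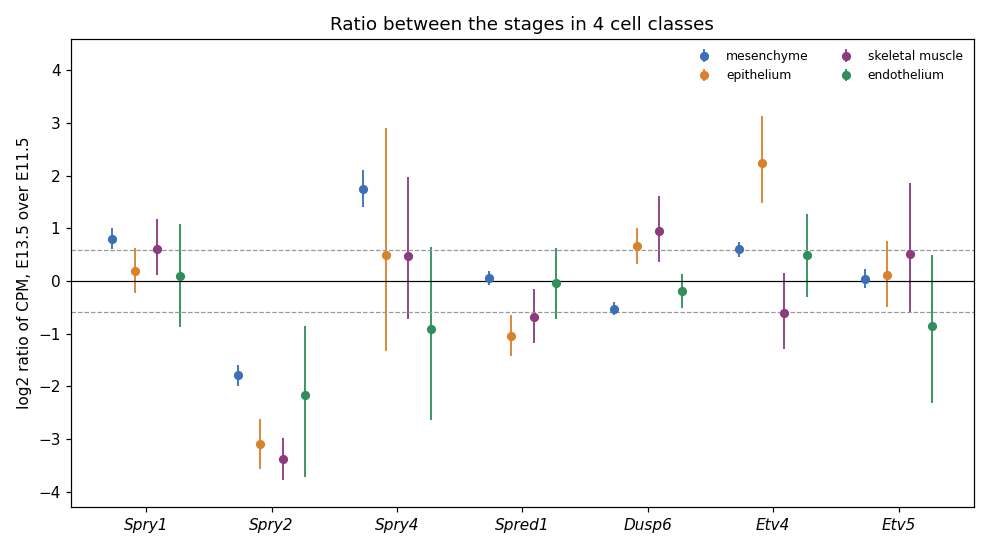
Log2 ratio of CPM, E13.5 over E11.5, for each gene in mesenchyme, epithelium, skeletal muscle and endothelium; lines are 95% counting intervals and dashed lines mark 1.5-fold. Spry2 lies below 0 in all 4 classes, with ratios of 0.289, 0.117, 0.096 and 0.224 in that order, and Dusp6 lies on both sides of 0.

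Epithelium and mesenchyme of the same library were then set against each other, which keeps the dissociation the same. At E13.5 Dusp6 was higher in epithelium than in mesenchyme, 45.8 against 27 CPM, a ratio of 1.7 (1.52 to 1.9). Spry4 was 5.75-fold lower in epithelium (1.41 against 8.13 CPM) and Spred1 1.79-fold lower (15.3 against 27.3 CPM). The rule placed 13.0% of 14044 genes higher and 25.9% lower. At E11.5 Spry1 was higher in epithelium (19.9 against 9.6 CPM, ratio 2.07, 1.55 to 2.73), as was Spry2 (44.1 against 24.7 CPM, ratio 1.79, 1.48 to 2.15). Etv4 was 3.97-fold lower in E11.5 epithelium (4.72 against 18.7 CPM), beside 12.6% of 12964 genes higher and 11.0% lower. The change of this contrast from E11.5 to E13.5, as a difference of log2 ratios, was 1.65 (0.86 to 2.44) for Etv4 and 1.19 (0.83 to 1.54) for Dusp6, toward epithelium. It was -1.3 (-1.8 to -0.8) for Spry2, -1.1 (-1.49 to -0.71) for Spred1 and -0.61 (-1.06 to -0.15) for Spry1, toward mesenchyme. For Spry4 and Etv5 its interval included 0.

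The epithelial values were carried unevenly by the deposited clusters. Of the 3 E13.5 clusters, cluster 9 was led by Sox2, Foxa2 and Nkx2-3, cluster 7 by Gjb6, Gjb2 and Lmo1, and cluster 16 by the differentiation gene Krtdap. Etv4 stood at 44.6 CPM in cluster 9 and at 6.63 CPM in clusters 7 and 16 together, a ratio of 6.72 (4.78 to 9.66). Etv5 stood at 18.1 against 5.17 CPM there, a ratio of 3.5 (2.3 to 5.45), and Dusp6 at 70.1 against 28.4 CPM, a ratio of 2.46 (2.04 to 2.98). Spry1 stood at 30.3 against 17.3 CPM, Spred1 at 20.1 against 11.8 CPM and Spry2 at 7.46 against 3.56 CPM. For Spry4, with 10 and 5 UMIs, the interval of the ratio included 1. The median depth was 14616 UMIs in cluster 9, 12472 in cluster 7 and 3061 in cluster 16. The ligand gene Fgf9 also stood higher there, at 20.4 against 12.3 CPM, and its E13.5 level was higher still in skeletal muscle, at 41.5 CPM. The receptor gene Fgfr2 stood lower, at 45.7 against 86.1 CPM. At E11.5 cluster 9 was led by the ligand gene Fgf8, with 225 CPM against 2.16 CPM in cluster 15. Spry2 stood at 54.4 CPM in it and 21.6 CPM in cluster 15, a ratio of 2.52 (1.56 to 4.29). Dusp6 stood at 35.8 and 14 CPM, a ratio of 2.55 (1.4 to 5.02). Etv4 had 14 UMIs in E11.5 cluster 9 and 0 in cluster 15, where a count of 0 in 130 cells allows up to 3 counts.

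The mesenchyme clusters of a single stage spanned wide ranges. At E13.5 cluster 6, led by Aldh1a3, Meox1 and Thbs4, had the highest level of Spry1 (32.7 CPM), Spry2 (19.2 CPM), Spry4 (23.6 CPM), Etv4 (95.6 CPM) and Etv5 (34.9 CPM) among the 10 mesenchyme clusters of at least 100 cells. Cluster 3, led by Barx1, Tbx22 and Slit2, had the highest Dusp6 level at 59.1 CPM (51.6 to 67.4), which overlapped cluster 6 at 51.9 CPM and cluster 4 at 48.2 CPM (42.3 to 54.6). Cluster 4 was led by Foxd1, Thbs4 and Foxf1 and had no cell called G1. Etv4 had the widest span. It stood at 53.6 CPM in cluster 4, 45.8 CPM in cluster 3 and 42 CPM in cluster 11, at 13.1 CPM in the osteogenic cluster 5, and at 6.77 CPM or less in clusters 0, 2, 10, 12 and 14. In cluster 14 it had 1 UMI. Spry4 ranged between 23.6 CPM in cluster 6 and 0.671 CPM (3 UMIs) in cluster 0, and Etv5 between 34.9 and 3.13 CPM in the same pair. Spred1 had the narrowest span, 2.64-fold, between 42 CPM in cluster 11 and 15.9 CPM in cluster 0.

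At E11.5 the high levels were divided over several of the 11 mesenchyme clusters. Cluster 2, led by Pax9, had the highest Spry1 (22.4 CPM), Spry2 (46.5 CPM), Spry4 (6.8 CPM) and Dusp6 (97.8 CPM, 89.6 to 106). Cluster 7, led by Tbx18, Osr2 and Shox2, lay next in Dusp6 at 89.3 CPM (77.7 to 102) and in Spry2 at 43 CPM (35.1 to 52.1), and both intervals overlapped those of cluster 2. The small cluster 16, of 128 cells and led by Inhba, had the highest Etv4 at 63 CPM (48.3 to 80.8) and Etv5 at 36.6 CPM (25.6 to 50.7). Cluster 0, led by Ebf2, Foxd1 and Magel2, followed with 36.9 CPM Etv4 and 27.7 CPM Etv5, but had 4.26 CPM Spry1 and 30.7 CPM Dusp6. Cluster 6, led by Pax1 and Rspo3, was lowest in Spry1, Spred1, Dusp6, Etv4 and Etv5. Its Dusp6 level was 7.11 CPM (4.14 to 11.4), which is 13.8-fold below cluster 2 but overlapped the E11.5 erythroid level of 4.91 CPM (3.31 to 7). Spry1, Etv4 and Etv5 had 5 UMIs each in cluster 6. Cells called G1 made up 67.7% of cluster 6 and 6.97% of cluster 2. Spry4 had no UMI in the 642 cells of cluster 3. The clusters of the stages were not matched to each other.

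**Figure D3:**
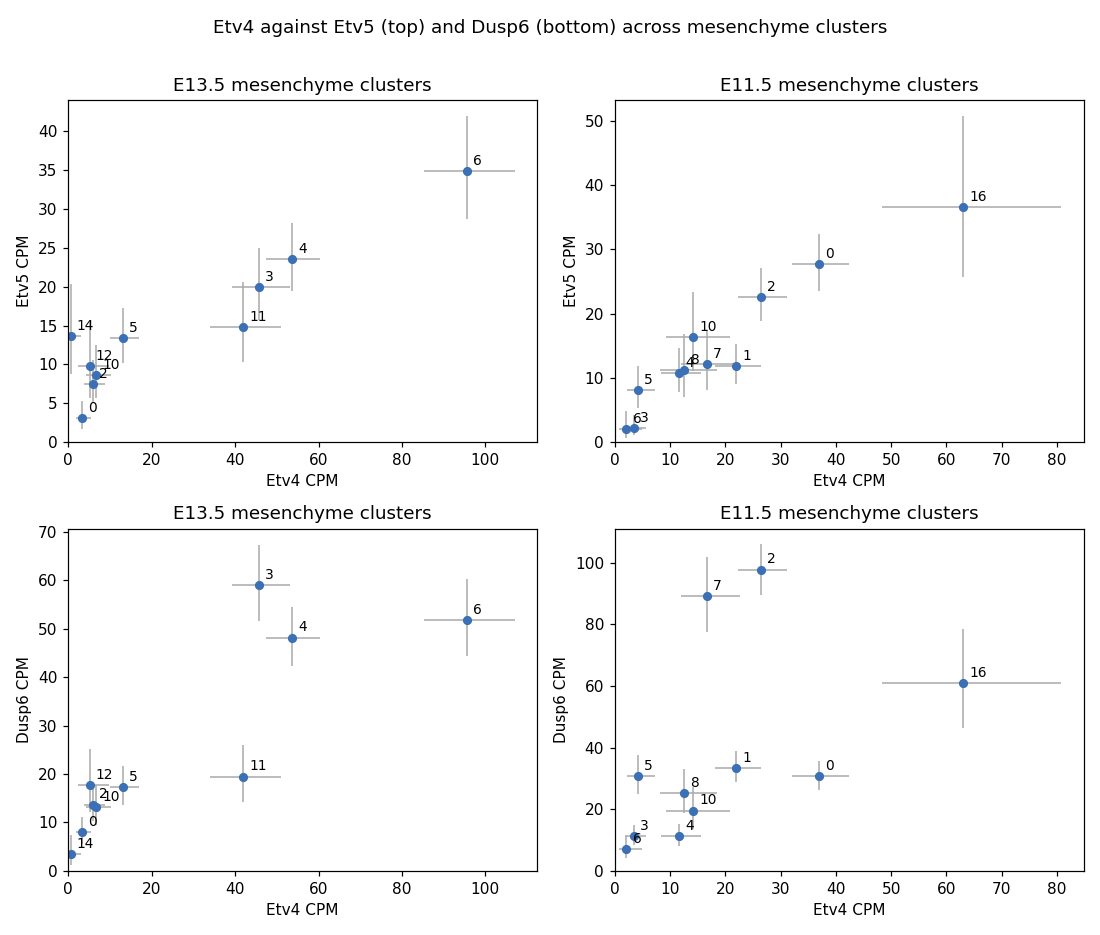
Etv4 level against Etv5 (top) and Dusp6 (bottom), in CPM, across the mesenchyme clusters of at least 100 cells, E13.5 left and E11.5 right; numbers are deposited clusters and lines 95% counting intervals. Etv4 and Etv5 lie near a line at E11.5 (r 0.95), while E11.5 clusters 2 and 7 stand above the rest in Dusp6 at 97.8 and 89.3 CPM.

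Across these mesenchyme clusters (10 at E13.5 and 11 at E11.5, which share a library and differ in depth and cell cycle) the genes varied together to unequal degrees, measured on log2(CPM + 1). The closest pair at E13.5 was Spry4 with Etv5, with r of 0.96 at E13.5 and 0.84 at E11.5. Dusp6 and Etv4 had r of 0.93 at E13.5 and 0.7 at E11.5, and Etv4 and Etv5 had 0.73 and 0.95. Spry2 with Spred1 had 0.26 at E13.5 and 0.51 at E11.5. The points are few, and the values are given as descriptions. In single thinned E13.5 mesenchyme cells, 23 of 3826 (0.601%, 0.381 to 0.901) held both Dusp6 and Etv4, where independent draws within each cluster would give 0.324%. At E11.5 the same pair was held by 16 of 5899 cells (0.271%, 0.155 to 0.44), against 0.258% from such draws. Dusp6 with Etv4 was the pair with the most such cells at E13.5, and the other pairs had at most 16. The E13.5 values of the other pairs lay on both sides of the draws within clusters. Spred1 with Etv4 had 0.418% against 0.257%, Spred1 with Dusp6 0.235% against 0.235%, and Spry1 with Dusp6 0.0784% against 0.152%. At E11.5 the pair with the most was Spred1 with Dusp6, with 26 of 5899.

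Skeletal muscle split in a similar way at E13.5. Cluster 1, led by the progenitor genes Msc, Pax7 and Myf5, had 33.6 CPM Dusp6, against 6.88 CPM in the differentiating clusters 15 and 19, a ratio of 4.88 (3.37 to 7.29). Spry1 stood at 34.1 against 16.2 CPM, a ratio of 2.1 (1.63 to 2.74), and Etv4 at 10 against 2 CPM, a ratio of 5.03 (2.55 to 11.3). Spry4 went the other way and was 4.94-fold lower in cluster 1, at 2.07 against 10.2 CPM, with the highest muscle level of 14 CPM in the Myog-led cluster 15. The E11.5 library had 1 muscle cluster of 151 cells, so this split could not be compared between the stages.

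Levels were also set against the authors' cell cycle calls. In E13.5 mesenchyme Etv4 stood at 21 CPM in G1 cells, 38.9 CPM in S cells and 32.4 CPM in G2M cells, and Dusp6 at 21.5, 33.2 and 31.4 CPM. In E11.5 mesenchyme Spry1 stood at 4.6 CPM in G1, 10.3 CPM in S and 11.8 CPM in G2M cells, and Dusp6 at 29.1, 39.5 and 43.5 CPM. Spry2 varied little with phase, between 6.93 and 7.46 CPM at E13.5 and between 22.3 and 25.8 CPM at E11.5. Cells called S or G2M made up 43% of the mesenchyme at E13.5 and 68.3% at E11.5, and its part in the stage ratios was not tested. Values from G1 cells alone also differ in which clusters they draw on. Among G1 cells of epithelium neither Dusp6 nor Etv4 passed the size rule, with 32.5 CPM Dusp6 at E13.5 against 27.3 CPM at E11.5, and 6.29 CPM Etv4 against 3.21 CPM (4 UMIs). In skeletal muscle the ratios of Spry1 and Dusp6 turned to log2 values of -0.86 and -0.9 in G1 cells. Of the E13.5 G1 muscle cells 137 were from cluster 15, 80 from cluster 19 and 18 from cluster 1, while the 32 at E11.5 were from cluster 14, its muscle cluster.

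**Figure D4:**
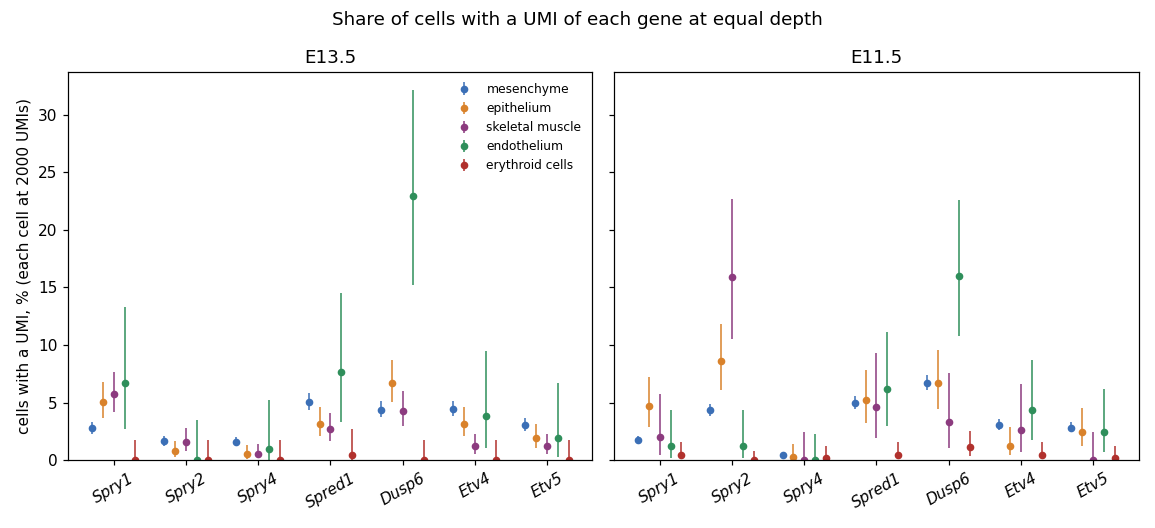
Share of cells (%) with at least 1 UMI of each gene after each cell was thinned to 2000 UMIs, by class, E13.5 left and E11.5 right; lines are exact binomial 95% intervals. Endothelium stands highest for Dusp6 at 22.9% at E13.5 and 16% at E11.5, and erythroid cells stay at or below 1.1%.

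The genes whose cluster profile was most like each member were found over 22 E13.5 and 17 E11.5 clusters among 6651 genes, by the lower of the Pearson r of the stages on log2(CPM + 1). These clusters share a library and range widely in depth, and erythroid clusters are near 0 for most genes. Spred1 had the closest companions, Sfxn1 (r 0.9 at E13.5 and 0.92 at E11.5), Flna (0.88 and 0.89) and Rab35 (0.88 and 0.92). Spry1 was followed most closely by Mnd1 (0.73 and 0.83), and the immediate early gene Ier5 came next. Dusp6 was followed by Commd8 (0.74 and 0.73), the immediate early gene Ier2 and Ost4. Spry2 was followed by Ccdc6 (0.75 and 0.72), Gid4 and Sod1, Spry4 by Rc3h1 (0.63 and 0.61), Ing1 and Lsm12, Etv4 by Ctbp2 (0.66 and 0.65), Ifrd1 and Grk6, and Etv5 by Tmem256 (0.77 and 0.76), Dok1 and Suv39h1. With a pseudocount of 10 in place of 1, of the 3 companions 2 remained for Spry1 and for Spred1 and 1 for Spry2, Spry4, Dusp6 and Etv5. None remained for Etv4, for which Foxf1 then led (0.73 and 0.71).

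The other genes of the pathway, in 5 lists with 89 symbols, gave the surroundings of these values. The list of FGF family genes holds the secreted ligands and the homologous factors Fgf11 to Fgf14, which stay in the cell and are not receptor ligands. It had 11 measured genes in mesenchyme. Of these 7 stood higher at E13.5 and 2 lower, and their median log2 ratio was 1.34, beside 0.14 over all genes. Without the homologous factors, a choice made after the data were seen, 5 of 8 stood higher and 2 lower, with a median of 1.18. The homologous factor gene Fgf12 (2.71 CPM at E13.5 against 0.375 CPM at E11.5) and the ligand gene Fgf7 (11.5 against 2.17 CPM) had the highest ratios, and Fgf5 (0.175 against 1.15 CPM) and Fgf8 (0.204 against 1.85 CPM) the lowest. E11.5 erythroid cells held 1.47 CPM Fgf8 (9 UMIs) and 0.491 CPM Fgf5 (3 UMIs). The mesenchymal levels of both genes thus lay near the background, and the part of free RNA in them was not tested. Of 8 receptor and co-receptor genes 5 were higher and Flrt3 was lower (median 0.94). Flrt1 (4.64 CPM at E13.5 against 0.509 CPM at E11.5) and Fgfr4 (1.08 against 0.241 CPM) led, and the receptor gene Fgfr1 stood at 140 CPM at E13.5 and 84.3 CPM at E11.5. Among the signal carriers Mapk3, which encodes ERK1, was higher (53.8 CPM at E13.5 against 32.3 CPM at E11.5), and Nras was lower (40.4 against 67 CPM), with a list median of 0.08. Of 16 other response and feedback genes Phlda1 (55.2 CPM at E13.5 against 17.8 CPM at E11.5) and Dusp14 were higher. Trib1 and the ERK phosphatase gene Dusp9 (13.5 against 48.3 CPM) were lower, and 12 were neither (median -0.1).

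In epithelium the median of the FGF family list was negative. Of 6 measured genes 5 stood lower at E13.5 and 1 stood higher (median -1.59, beside -0.11 over all genes). Without the homologous factors all 4 that were measured stood lower (median -2.5). Fgf8 stood at 1.04 CPM at E13.5 (11 UMIs) against 155 CPM at E11.5 (461 UMIs), 150-fold lower (83 to 302). Fgf17 (0.66 against 5.39 CPM) was also lower, as were Fgf20 (5.18 against 21.2 CPM), Fgf9 and the homologous factor gene Fgf13, while Fgf11, another of that kind, was higher with 36 against 2 UMIs. Of 7 receptor genes Flrt1, Flrt2 and Fgfr2 (69.3 CPM at E13.5 against 33.4 CPM at E11.5) were higher and none lower (median 0.59). Flrt1 had no E11.5 UMI and was at least 6.81-fold higher against a floor of 3 counts. The signal carriers had a median of -0.13. Of 13 other response genes Dusp14 (31.7 against 8.76 CPM) was higher and Dusp9 (30.9 against 52.9 CPM) and Trib1 were lower (median -0.25). Immediate early genes again differed beside these, with 6 of 12 higher and Ier2 lower (median 0.6).

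**Figure D5:**
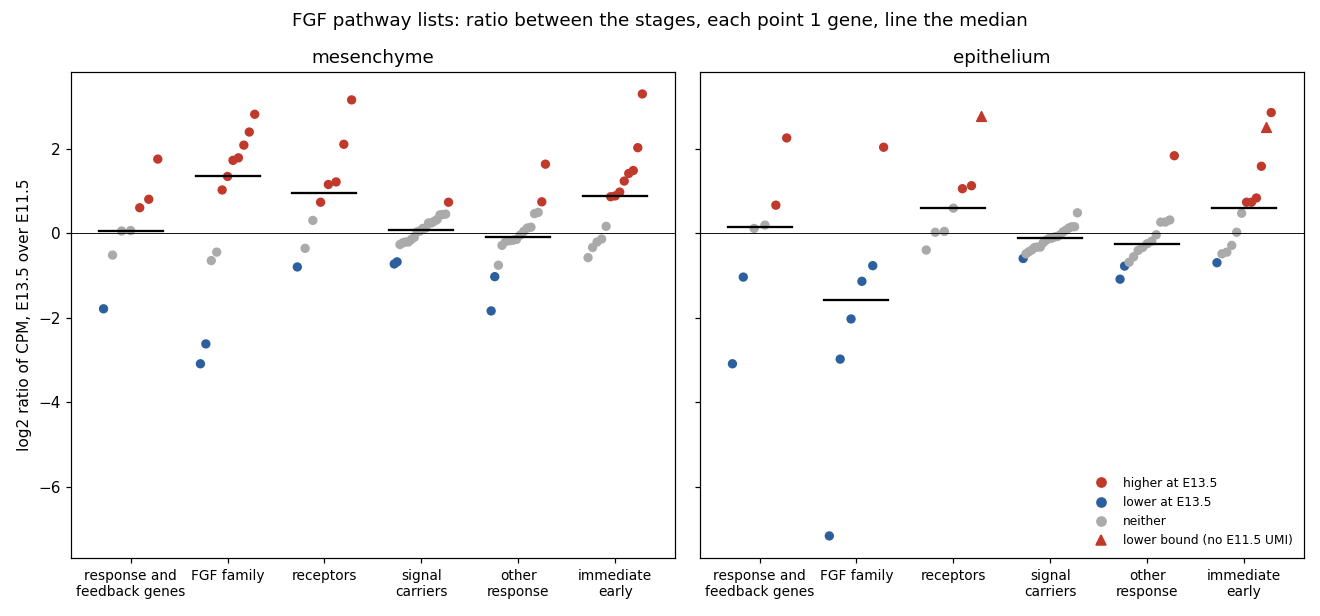
Log2 ratio of CPM, E13.5 over E11.5, for the measured genes of each list in mesenchyme (left) and epithelium (right); each point is 1 gene, the bar its list's median and a triangle a lower bound against a floor of 3 counts. In mesenchyme the FGF family median is 1.34 and in epithelium -1.59, while the response and feedback genes span both directions in each.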

How the data were processed

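The authors deposited, for each stage, whole-number UMI counts of each gene in each cell, with metadata for the cells. Cell Ranger 2.0.0, Seurat 2.3.4 and the build mm10 are named, without roles, per the submitters' processing notes. The annotation release was not given in the sources used here, as with cell filters and doublet removal. The mitochondrial share is a deposited fraction, printed as a percent. Cluster numbers, lineage names, cell cycle phases and cell cycle score values are the authors' deposited labels, and the scores were not used. The 7 genes, pathway lists and markers were chosen with earlier results of these data known.

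Counts were summed over the cells of a class or cluster and divided by their total (CPM). Ratios have exact conditional binomial intervals, CPM values exact Poisson intervals and shares exact Clopper-Pearson intervals, all at 95%. With 1 library per stage nothing was tested, and a gene was called higher or lower by size (1.5-fold, interval excluding 1, at least 20 UMIs). The lists name the genes with the 2 highest and 2 lowest ratios. Likeness used genes with at least 500 UMIs in each library and clusters of at least 50 cells. The rule was tried on simulated data with known folds, drawn from the E11.5 mesenchyme profile. Such draws from 1 profile cannot show how the rule fares with differences between libraries. Some results of the signal carrier list are not reported here. E11.5 cluster 17 was taken as glia and E11.5 cluster 14 as muscle by their leading genes, and E13.5 cluster 8 stayed unnamed. Doublets were kept and no caller was run. Coordinates are from GENCODE on GRCm38, whose symbols matched 96.6% of the E13.5 and 96.8% of the E11.5 genes. Values were computed with scipy 1.17.1 and numpy 2.4.6 under Python 3.11.15; tables used pandas 2.3.3, figures matplotlib 3.10.9. Alternatives numbered 15 planned and 5 added after the data were seen.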

Additional observations from a re-analysis of the deposited data

Results flagged for a closer look

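Dusp6 differed between the stages in opposite directions in different classes, a difference that was not tested. Its log2 ratio of E13.5 over E11.5 was 0.66 in epithelium and 0.95 in skeletal muscle, and -0.52 in mesenchyme, each with an interval that excluded 0. From thinned cells the epithelial value was 0.08 and the muscle value 0.37. The mesenchyme value ranged between -0.69 and -0.26 over the alternatives. In G1 cells, which at E13.5 came mostly from other muscle clusters than the class as a whole, the muscle value was -0.9.

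The E13.5 cluster 8, of 304 cells with a median of 935.5 UMIs and no lineage name from the authors, entered none of the class comparisons. Each gene named next had more UMIs there than the 3 that a count of 0 allows, and how many other genes did was not counted. Spry2 stood at 35.1 CPM there, Etv4 at 33.6 CPM, Dusp6 at 32 CPM, Spred1 at 19.8 CPM, Etv5 at 18.3 CPM and Spry1 at 15.3 CPM. Haemoglobin genes made up 24.1% of its UMIs, against 0.219% in E13.5 mesenchyme without cluster 2. Spry2 rested on 23 UMIs in 18 cells and was, with Notch2, Rbm15 and haemoglobin genes, among the 10 leading genes of the cluster.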

How the results depend on the processing

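No paired analysis was possible because each stage is 1 library. Of 454 recomputed log2 ratios of the 7 genes, 402 stayed within their counting error, 50 moved and 2 reversed. The reversed ones were Spry1 (-0.86) and Dusp6 (-0.9) among G1 cells of skeletal muscle. Only a ratio called by the size rule could count as reversed, and uncalled ratios changed sign too. In G1 cells Etv5 in skeletal muscle went from 0.51 to -2.21 and Spry4 in epithelium from 0.48 to -1.62. Some sign changes stayed within counting error, such as Etv5 in endothelium (-0.85, and 0.21 in thinned cells). Of 120 recomputed counts of genes higher or lower, 103 stayed within 1.5 times. These counts are small, and a change from 3 to 2 is within that limit. The loss of the mesenchymal Etv4 call with size factors was therefore not scored as a move. Which genes made up a count was not compared. The share of all genes is given for the main rule only. The counts below therefore have no background beside them, and whether they moved with all genes cannot be told. At a 2-fold rule the count of higher genes fell to 1 in mesenchyme (Spry4) and 1 in epithelium (Etv4), and the 2 in skeletal muscle, at 1.53-fold and 1.93-fold, came under it. The same rule left 0 genes higher in epithelium than mesenchyme at E13.5, 1 at E11.5 and 1 lower at E13.5. Size factors, thinned cells, or only cells with no Xist UMI brought the lower genes in mesenchyme to 2, as Dusp6 joined Spry2. Thinned cells or cells with no Xist UMI left 1 gene higher in epithelium (Etv4), and G1 cells left 0. Thinned cells left 1 lower there (Spry2). Size factors or thinned cells gave 2 genes higher in epithelium than mesenchyme at E13.5, as Spry1 joined. G1 cells gave 4 lower in epithelium at E13.5 and 2 at E11.5, and subtracting erythroid UMIs per cell also gave 2 at E11.5. Size factors shifted the mesenchyme log2 ratios by 0.12. Depth limits Spry4 in epithelium and endothelium, with 18 and 17 UMIs over both stages. The Etv4 ratio in mesenchyme ranged between 0.39 and 0.84 on the log2 scale.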

Other observations

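The lower Spry2 level at E13.5 was shared by other genes picked after their values were seen. Among them were Rbm15 and Marf1, which a pseudocount of 10 placed among the 3 most like Spry2. In mesenchyme Rbm15 stood at 9.27 CPM at E13.5 and 62.9 CPM at E11.5, 6.79-fold lower, and Marf1 at 16 CPM and 110 CPM, 6.89-fold lower. In epithelium they were 5.85-fold and 8.36-fold lower, in skeletal muscle 7.2-fold and 7.14-fold lower, and in endothelium 4.68-fold and 7.22-fold lower. Notch2 and Slc39a1, which like Spry2 were among the leading genes of E13.5 cluster 8, were each 2.34-fold lower in mesenchyme. They were 3.08-fold and 3.36-fold lower in epithelium. The companions Ccdc6, Gid4 and Sod1 were not lower by the size rule in mesenchyme, with ratios of 1.27, 0.92 and 1.58. What these genes share was not tested. In thinned E11.5 mesenchyme cells, 61 of 5899 (1.03%, 0.792 to 1.33) held both Spry2 and Rbm15, where independent draws over all these cells would give 0.491%. For Spry2 and Marf1 98 cells (1.66%, 1.35 to 2.02) stood against 0.852%. Of the 3 other companions looked at, Ccdc6 had 0.186% (0.0931 to 0.333) against 0.1%, Sod1 0.509% (0.343 to 0.725) against 0.366% and Gid4 0.136% against 0.139%. At E13.5 Rbm15 and Spry2 shared 1 cell of 3826 (0.0261% against 0.0252%) and Marf1 and Spry2 shared 3 (0.0784% against 0.0466%). These companions were picked by likeness to Spry2 across the same clusters, and draws within each cluster were not computed for them. The comparison with draws over all cells thus cannot separate cluster differences from sharing in single cells.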
